A study of Mus musculus with 12 samples.

Results

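The interleukin 6, Stat3 and hepcidin axis was followed through 5 of the 547 genes measured: the receptor genes Il6st and Il6ra, the transcription factor gene Stat3, its feedback inhibitor gene Socs3, and the hepcidin gene Hamp. They were taken by symbol from the deposited table of all genes, and all 5 passed the filter on low values. RNA of 12 male C57BL6-NJ mice was counted with gene-specific barcoded NanoString probes, which read transcripts without amplification. Constitutive SphK2 knockout (KO) mice and wild-type (WT) mice were each given a Western diet with sugar water or a control diet with normal water, 3 mice in each of the 4 groups. SphK2 makes the lipid signal sphingosine 1-phosphate. The liver is named in the title of the series, as an early model of metabolic dysfunction-associated steatohepatitis (MASH), an inflamed fatty liver. Feeding began at 12 to 18 weeks of age and lasted 16 weeks by the protocol, whereas another label gives each mouse its own duration, between 16 and 27 weeks, and was not used. Labelled ages were 221, 217 and 252 days in KO mice on the Western diet and 226, 226 and 232 days in WT mice on that diet. KO mice on the control diet were 259, 253 and 250 days old, and WT mice on it 231, 231 and 232 days. No library of WT mice on the control diet therefore matches the ages of the KO mice on that diet. The labelled ages of 250 days or more exceed the latest start age plus 16 weeks. If tissue was taken when feeding ended, label and protocol conflict for these KO mice, and ages below are used as labelled.

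In the liver, interleukin 6 binds its receptor, encoded by Il6ra, and the shared signalling chain gp130, encoded by Il6st. Janus kinases bound to gp130 then phosphorylate Stat3, which enters the nucleus, turns on acute-phase genes and Hamp, and induces Socs3, which blocks the receptor in turn. Hepcidin is a hormone of hepatocytes that closes the iron exporter ferroportin, and its gene is driven by bone morphogenetic protein signals from iron stores as well as by Stat3. Stat3 activity depends on phosphorylation, which RNA levels do not measure.

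The upstream window of Hamp shows the elements by which Stat3 and the bone morphogenetic protein pathway are known to act on hepcidin. The window of its neighbour copy Hamp2 is set beside it to show how alike the upstream sequences are. Each window is the 250 bases before the RefSeq start in build GRCm38.p6, on the minus strand. Capitals mark matches to TTCNNNGAA, the palindrome bound by STAT proteins, and to GGCGCC, known from human hepcidin as a bone morphogenetic protein element. Both palindromes read the same on either strand, and the matches do not overlap. The Hamp window lies at chr7:30944030-30944279 and the Hamp2 window at chr7:30924182-30924431.
Hamp: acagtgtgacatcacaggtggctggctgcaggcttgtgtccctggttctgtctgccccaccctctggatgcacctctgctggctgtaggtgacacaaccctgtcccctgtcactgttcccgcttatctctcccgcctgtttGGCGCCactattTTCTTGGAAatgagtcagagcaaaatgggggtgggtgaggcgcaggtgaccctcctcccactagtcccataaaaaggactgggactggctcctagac
Hamp2: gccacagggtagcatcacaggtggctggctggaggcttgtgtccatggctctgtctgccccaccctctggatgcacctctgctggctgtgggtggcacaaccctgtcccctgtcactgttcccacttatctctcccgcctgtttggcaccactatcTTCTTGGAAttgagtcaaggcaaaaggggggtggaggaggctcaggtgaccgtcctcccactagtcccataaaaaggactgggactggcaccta
In Hamp, TTCTTGGAA stood 97 to 89 bases before the start and GGCGCC 109 to 104 bases before it. In Hamp2, TTCTTGGAA stood 94 to 86 bases before the start, and GGCGCC was not found in the window. The windows were identical at 227 of 253 aligned positions (89.7%). These windows lie upstream of the transcripts and do not show whether a probe would capture both. The sequence of the Hamp probe was not used here, so reads of Hamp and Hamp2 cannot be told apart, and every Hamp value below carries that uncertainty. The Socs3 window held TTCTTAGAA 154 to 146 bases and GGCGCC 61 to 56 bases before its start, which lies inside the annotated span of the gene. The windows of Il6st, Il6ra and Stat3 held neither motif. Among 32851 mouse promoter windows of the same length, 7.02% held the STAT palindrome, 9.59% held GGCGCC and 0.368% held both. These letter matches describe the sequence and show no binding.

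In GRCm38.p6 the genes lie at chr7:30942368-30944029 (Hamp), chr11:100886806-100939594 (Stat3), chr11:117966079-117970336 (Socs3), chr3:89869324-89913196 (Il6ra) and chr13:112464070-112506860 (Il6st). Each library totalled between 440842 and 643638 recovered whole counts, and levels below are normalized counts per mouse. Sphk2 itself was not on the panel, and the deletion cannot be seen in these data. Albumin, Apoa1 and Ttr were also not measured, but 19 complement and plasma genes made mainly by hepatocytes were, and they summed to between 139530 and 321960 normalized counts in every library. On principal components of the tested genes, replicate 2 of the KO control-diet group lay away from all others on axis 2 (-9.00), and WT Western-diet replicate 2 lay on axis 1 (-5.59) among the control-diet libraries, which ran from -6.65 to -3.76. Each test below is limma on log2(normalized count + 1) with Benjamini-Hochberg adjustment over 453 genes, and a gene passed where the adjusted p was under 0.05. A difference is KO minus WT or Western minus control diet on that log2 scale.

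Hamp and Stat3 fell on the Western diet in KO mice. Hamp was at 17096, 11185 and 14247 in KO mice on the Western diet, against 24506, 53765 and 37636 in KO mice on the control diet. Every Western-diet library lay below every control-diet library, and control-diet replicate 2 was the highest of all 12. The difference was -1.40 (SE 0.28, 95% interval -2.01 to -0.79), 2.63-fold lower, with an adjusted p of 0.00176 by limma. Stat3 was at 1290.4, 1376.8 and 1302.1 in KO mice on the Western diet, against 1710.8, 2386.2 and 2032.0 in KO mice on the control diet. Here too the groups did not overlap, and control-diet replicate 2 was again the highest. The Stat3 difference was -0.61 (SE 0.11, 95% interval -0.85 to -0.38), 1.53-fold lower, with an adjusted p of 0.000745 by limma. These are 2 of the 5 genes of the axis, where 45.3% of all 453 genes passed in this comparison. Under the authors' scaling 169 of all genes passed as higher and 36, or 7.95%, as lower, against 55 and 228 on the sample median, 108 and 93 on the median ratio and 82 and 111 after quantile normalization. The median difference was -0.45 over the 5 genes and 0.27 over all tested genes. The tested genes include 17 macrophage and monocyte markers, 15 of which passed as higher in this comparison. Shares and medians over all genes here describe this panel and not liver RNA as a whole.

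**Figure D1:**
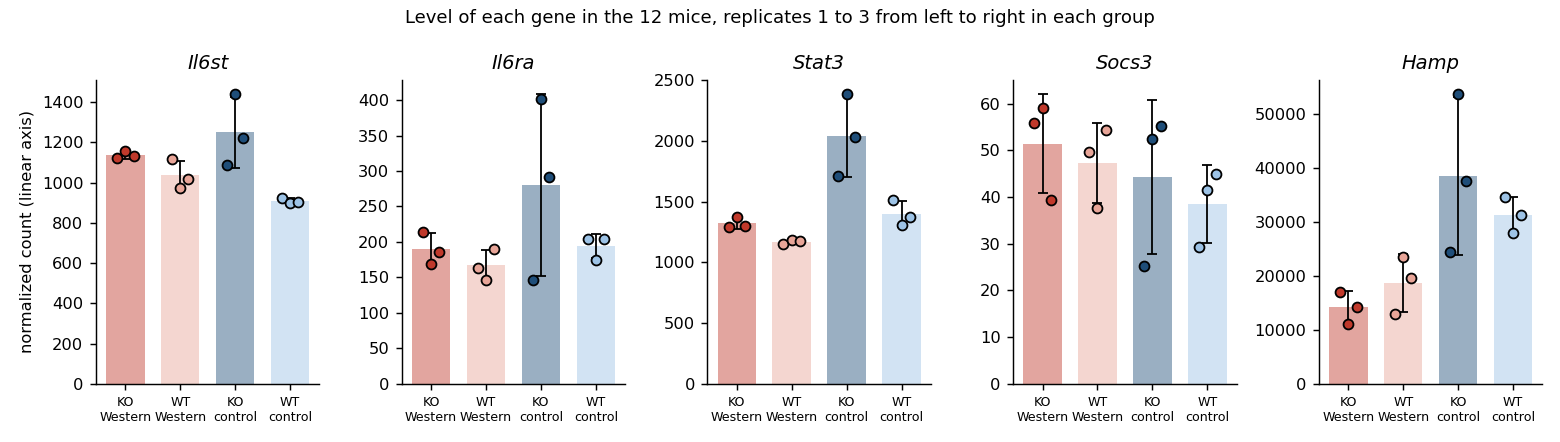
Normalized counts of the 5 genes (vertical axes, linear from 0) in KO and WT mice on the Western diet and KO and WT mice on the control diet. Bars are means, error bars SD (n = 3), and points are single mice. For Hamp and Stat3 the KO Western-diet points all lie below the KO control-diet points. For each of the 5 genes the 3 KO control-diet points are the most widely spread.

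Both calls remained when any 1 of the 12 libraries was left out, with Hamp between -1.69 and -1.12 and Stat3 between -0.74 and -0.50. Without KO control-diet replicate 2, the library that stood apart, the differences were -1.12 for Hamp (adjusted p = 0.00535) and -0.50 for Stat3 (adjusted p = 0.00151). The size of both differences depended on the scaling. That of Hamp was -2.12 with each library recentred on its sample median, -1.67 on the median ratio and -0.67 after quantile normalization (adjusted p = 0.0397). That of Stat3 was -1.34 on the sample median, -0.88 on the median ratio and -0.67 after quantile normalization, and both genes passed as lower under each. Both calls were lost with the series-wide value table taken as labelled, whose columns hold the workbook's values under other animals' names (Hamp 0.54, adjusted p = 0.695, and Stat3 0.46, adjusted p = 0.456). Age differed along with diet in the KO mice. With age as a covariate the differences were -1.42 for Hamp (adjusted p = 0.0418) and -0.69 for Stat3 (adjusted p = 0.0179). KO Western-diet replicate 3, at 252 days as old as the control-diet KO mice, had 14247 for Hamp and 1302.1 for Stat3. Both values lay within the range of its group's other mice, which at 221 and 217 days were younger than every control-diet KO mouse. The age covariate rests largely on this 1 mouse, so age and diet cannot be told apart in KO mice.

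In WT mice the same comparison had the same direction and did not pass. Hamp was at 12890, 23597 and 19668 in WT mice on the Western diet, against 34638, 27924 and 31275 in WT mice on the control diet. These groups did not overlap, and Western-diet replicate 2 was the closest to the control-diet mice. The difference was -0.78 (SE 0.28, 95% interval -1.39 to -0.17), with an adjusted p of 0.11 by limma, 0.0385 without Western-diet replicate 2, 0.0476 without KO control-diet replicate 1, 0.0083 without Western-diet replicate 2 and KO control-diet replicate 2 together, and 0.031 on the sample median. Stat3 was at 1152.9, 1187.1 and 1174.7 in WT mice on the Western diet, against 1513.8, 1305.1 and 1375.8 in WT mice on the control diet. Again no library of one diet reached into the other. The Stat3 difference was -0.25 (95% interval -0.48 to -0.02), with an adjusted p of 0.168 by limma, and on the sample median it was -0.53 and passed (adjusted p = 0.0199). None of the 5 genes passed under the authors' scaling, where 8.61% of all genes did. Hamp and Stat3 had an unadjusted p under 0.05, as did 25.2% of all genes. Western-diet mice lay below all control-diet mice without overlap for 12.1% of all genes in WT mice and for 12.1% in KO mice.

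Whether the diet difference itself differed between genotypes was tested as an interaction, the difference in KO mice minus that in WT mice. It was -0.62 for Hamp (95% interval -1.48 to 0.25, adjusted p = 0.301) and -0.36 for Stat3 (95% interval -0.69 to -0.03, adjusted p = 0.131). For Il6st it was -0.31 (adjusted p = 0.139), and for Il6ra -0.23 and Socs3 -0.03. None of the 5 passed by limma, where 1.32% of all genes did, and Il6st and Stat3 had an unadjusted p under 0.05, as did 31.3% of all genes. Without KO control-diet replicate 1, the lowest mouse of its group for Hamp, Stat3, Il6st and Il6ra, Stat3 passed at -0.48 (adjusted p = 0.0258) and Il6st at -0.41 (adjusted p = 0.0454). Both also passed with libraries recentred on the median ratio, Stat3 at -0.56 and Il6st at -0.51 (adjusted p = 0.0474 for each), and on the sample median, Stat3 at -0.81 (adjusted p = 0.0198) and Il6st at -0.77 (adjusted p = 0.0192). A larger fall of Hamp or Stat3 in KO mice was therefore not shown under the fit used here.

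**Figure D2:**
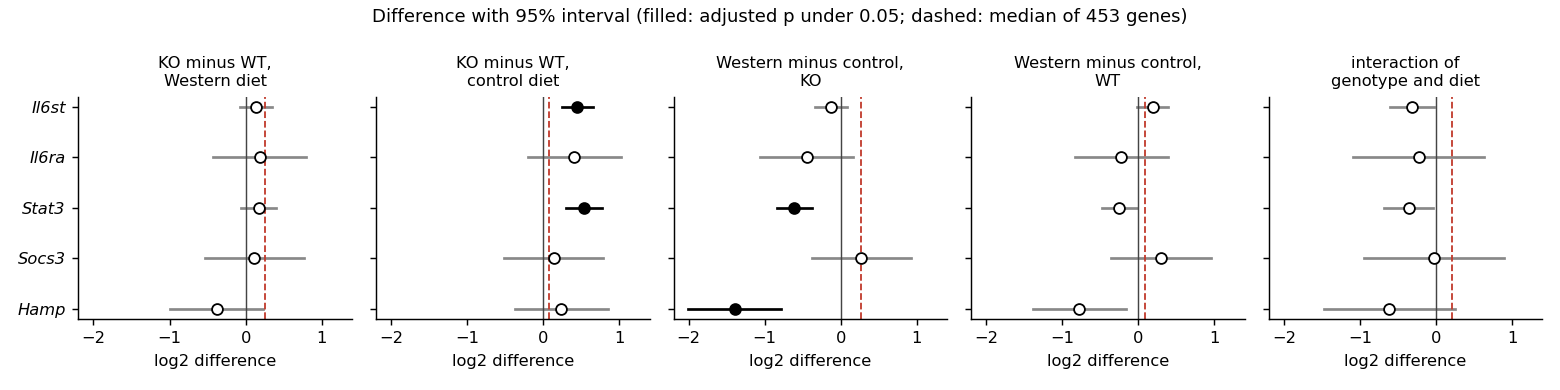
Log2 differences of the 5 genes (horizontal axis) in each genotype and diet comparison and in the interaction, with 95% intervals from limma. Filled points have an adjusted p under 0.05, and the dashed line is the median of all 453 genes. Hamp at -1.40 and Stat3 at -0.61 lie below that median of 0.27 in KO mice on the Western diet, and Il6st at 0.45 and Stat3 at 0.54 lie above the median of 0.07 between KO and WT mice on the control diet.

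Stat3 and Il6st rose in KO mice relative to WT mice on the control diet. The Stat3 levels given above put every KO mouse above every WT mouse, with 1710.8 the lowest KO value and 1513.8 the highest WT value. KO mice lay above WT mice without overlap for 16.1% of all genes on this diet. The difference was 0.54 (SE 0.11, 95% interval 0.31 to 0.77), with an adjusted p of 0.0147 by limma. This call and the fall of Stat3 on the Western diet in KO mice share the same 3 KO control-diet libraries and are not independent. KO mice on the Western diet, at 1290.4 to 1376.8, overlapped WT mice on the control diet, at 1305.1 to 1513.8. Il6st was at 1089.4, 1440.1 and 1221.0 in KO mice, against 923.84, 897.68 and 905.25 in WT mice. The WT mice were close together, and the KO mice lay above them and were spread out, with replicate 2 the highest. The Il6st difference was 0.45 (SE 0.095, 95% interval 0.24 to 0.66), with an adjusted p of 0.0226 by limma. These 2 of 5 stand beside 2.87% of all genes in this comparison, 1.99% as higher. Hamp differed by 0.24 (95% interval -0.37 to 0.85, adjusted p = 0.768), and its KO mice lay both below and above all WT mice.

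Both calls depended on the fit and on single libraries, while both directions held under each scaling. With age as a covariate, the Stat3 difference was 0.60 (adjusted p = 0.146) and that of Il6st 0.49 (adjusted p = 0.189). Recentred on the sample median, they were 0.42 (adjusted p = 0.139) and 0.34 (adjusted p = 0.14). With the variance of each gene by itself the adjusted p was 0.0652 for each gene, and with only the 6 control-diet libraries 0.0906 for each. Stat3 did not pass without WT control-diet replicate 2 (adjusted p = 0.0692), WT replicate 3 (0.074) or KO replicate 3 (0.0735). Il6st did not pass without WT replicate 1 (adjusted p = 0.071), 2 (0.0692) or 3 (0.0814), or without KO replicate 2 (0.0554) or 3 (0.0834). Age and genotype cannot be told apart between these groups, since all KO mice were older.

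On the Western diet no gene of the axis passed between KO and WT mice under the authors' scaling, where 35.5% of all genes did, and none had an unadjusted p under 0.05, where 45.9% of all genes did. Il6st was at 1122.0, 1159.6 and 1131.4 in KO mice, against 1117.2, 974.96 and 1020.1 in WT mice. The KO mice were all above the WT mice, by little in the case of WT replicate 1. The difference was 0.14 (95% interval -0.07 to 0.34, adjusted p = 0.296 by limma). Stat3 differed by 0.17 (adjusted p = 0.225), and its groups, given above, did not overlap either, as was the case in the same direction for 41.7% of all genes. Hamp differed by -0.38 (95% interval -0.99 to 0.23, adjusted p = 0.326), with the KO and WT ranges overlapping. With libraries recentred on the sample median, 3 of the 5 passed as lower in KO mice, Il6st at -0.43 (adjusted p = 0.012), Stat3 at -0.39 (adjusted p = 0.0418) and Hamp at -0.94 (adjusted p = 0.0303), so the direction of Il6st and Stat3 turned. The authors' deposited table, whose header names the genotypes and no diet, lists log2 fold changes of 0.14 for Il6st, 0.18 for Stat3, 0.21 for Il6ra and -0.40 for Hamp, with adjusted p-values of 0.50, 0.451, 0.626 and 0.253. Across 291 genes with a fold change other than 0 in the authors' deposited table, those values had an r of 0.984 with the Western-diet difference and 0.285 with the control-diet difference. Genes are not independent replicates, and the table comes from the same workbook.

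Il6ra and Socs3 did not pass in any of the 5 comparisons under the authors' scaling. Il6ra was at 213.92, 169.09 and 185.35 in KO mice on the Western diet and 163.0, 146.86 and 190.52 in WT mice on it. Under the control diet it was at 146.16, 402.17 and 291.41 in KO mice and 204.43, 174.61 and 203.55 in WT mice. KO control-diet replicate 1 was the lowest of all 12 mice and replicate 2 the highest, so this group spanned the whole range. Its KO minus WT difference on the control diet was 0.41 (95% interval -0.20 to 1.02, adjusted p = 0.492 by limma), and 0.82 without KO replicate 1 (adjusted p = 0.00831). The Western minus control difference in KO mice was -0.45 (adjusted p = 0.206), and -0.86 without that library (adjusted p = 0.0021). Without KO replicate 2 instead, it was -0.13 (adjusted p = 0.686). With all libraries kept, the Western minus control difference in KO mice passed under each of the 3 other scalings, at -1.18 on the sample median, -0.72 on the median ratio and -1.01 after quantile normalization. Il6ra differed by 0.18 between KO and WT mice on the Western diet and by -0.22 between the diets in WT mice (adjusted p = 0.657 and 0.675). Il6st differed between the diets by -0.13 in KO mice (adjusted p = 0.293) and by 0.19 in WT mice (adjusted p = 0.243), and in KO mice it passed on the median ratio at -0.40 and on the sample median at -0.85.

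Socs3 was at 55.843, 59.136 and 39.387 in KO mice on the Western diet and 49.696, 37.734 and 54.436 in WT mice on it. Under the control diet it was at 25.237, 52.346 and 55.319 in KO mice and 29.205, 41.414 and 45.007 in WT mice. All 4 groups overlapped, and each control-diet group had its replicate 1 clearly below the other mice. The differences were 0.11 and 0.14 for KO minus WT on the Western and the control diet, and 0.27 and 0.30 for Western minus control diet in KO and WT mice. The adjusted p-values by limma ran from 0.487 to 0.886. The interval in KO mice reached from -0.38 to 0.92, so neither a fall nor a rise within it was excluded with 3 mice per group. The Socs3 difference in KO mice turned to -0.46 on the sample median and -0.17 after quantile normalization and passed under neither, so Socs3, the known feedback target of Stat3, had no detected fall where Stat3 and Hamp fell.

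The hepatocyte-made plasma genes fell with Hamp and Stat3 in KO mice. Of the 19, 11 were lower and none higher on the Western diet in KO mice, with a median difference of -0.54. Among all genes 7.95% passed as lower there. On the sample median all 19 were lower, on the median ratio 17, and after quantile normalization 8 were lower and 1 higher. Of all 453 genes, 228, 93 and 111 were lower under these scalings in turn. Under the authors' scaling 1 of the 19 was lower in WT mice, with a median difference of -0.12. C8b, a subunit of the complement membrane attack complex, fell by 1.99 on the log2 scale in KO mice (adjusted p = 0.000366 by limma) and by 1.38 in WT mice (adjusted p = 0.0243). C3, the central complement component and itself an acute-phase gene, fell by 0.90 in KO mice (adjusted p = 0.0047), and Vtn, which encodes the plasma protein vitronectin, fell by 0.86 (adjusted p = 0.00312; -0.23 and 0.0521 after quantile normalization). The 19 genes summed to 149220, 139530 and 143840 in KO mice on the Western diet and 140990, 150800 and 148430 in WT mice on it. For the control diet the sums were 160800, 321960 and 233800 in KO mice and 166280, 162140 and 162120 in WT mice. KO control-diet replicate 2 was the highest for this sum as it was for Hamp, Stat3, Il6st and Il6ra, and replicate 1 was the lowest of its group for each of them. In bulk RNA, fewer hepatocytes and less of these RNAs in each hepatocyte cannot be told apart, and the part of either in the falls of Hamp and Stat3 was not tested.

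As a share of that sum, Hamp stood at 11.5%, 8.02% and 9.90% in KO mice on the Western diet, against 15.2%, 16.7% and 16.1% in KO mice on the control diet. The groups did not overlap, so Hamp was also lower relative to these genes. In WT mice Hamp stood at 9.14%, 15.6% and 13.25% of the sum on the Western diet and 20.8%, 17.2% and 19.3% on the control diet, again without overlap. The KO shares lay below the WT shares in every mouse on the control diet, although the Hamp levels themselves overlapped. For Stat3 the shares were 0.865%, 0.987% and 0.905% in KO mice on the Western diet, against 1.06%, 0.741% and 0.869% in KO mice on the control diet. These overlapped, so the fall of Stat3 in KO mice was not seen relative to this sum. In WT mice they were 0.818%, 0.787% and 0.791% on the Western diet and 0.910%, 0.805% and 0.849% on the control diet, which also overlapped. C3 weighs most in the sum, with an average of 51687 over the 12 libraries, and it fell more than Stat3 in KO mice. The overlap therefore cannot decide whether Stat3 fell relative to the other plasma genes. The shares are descriptions without a test, and C3, Cfb and Serping1 in the sum are known to respond to interleukin 6 themselves.

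**Figure D3:**
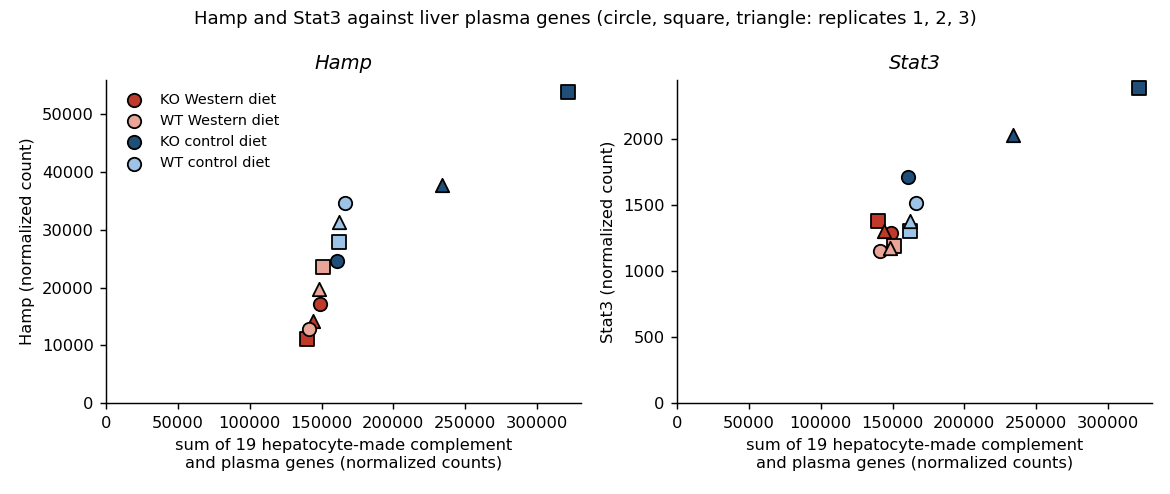
Hamp and Stat3 (vertical axes, normalized counts) against the summed normalized counts of 19 hepatocyte-made complement and plasma genes (horizontal axis), with 1 point per mouse and no error bars. KO control-diet replicates 2 and 3 lie far to the right, at 321960 and 233800, and the Western-diet mice lie lowest for Hamp at sums just under those of the WT control-diet mice.

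The genes whose levels most resembled each member's over the 12 libraries were named by Pearson's r of log2 values. Nearest to Hamp were C8b (r = 0.97), the adhesion gene Ceacam1 (0.91) and Vtn (0.91). After group means were subtracted these were 0.95, 0.65 and 0.89. Nearest to Stat3 were C3 (0.94), the interferon receptor gene Ifnar2 (0.94) and the complement inhibitor gene Serping1 (0.92), and nearest to Il6ra were Serping1 (0.91) and the complement genes Cfb (0.89) and C2 (0.89). Il6st lay nearest to Clu (0.94), Irak4 (0.93) and Il1r1 (0.92), and Socs3 to Cxcr3 (0.88), Cd3eap (0.88) and Cd4 (0.83). No gene of the axis was among the 3 nearest of another. Stat3 and Hamp had an r of 0.73 over the 12 libraries, and 0.68 after group means were subtracted. Stat3 and Socs3 had an r of -0.02, and Socs3 and Hamp -0.20. After group means were subtracted these turned positive, to 0.46 and 0.27. Stat3 had an r of 0.78 with Il6ra and 0.63 with Il6st, and 0.83 and 0.81 after group means were subtracted. All of these rest on the same 12 libraries, share each library's scaling, and carry no test.

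Among the ligands of the family, 5 were measured and 4 tested, and interleukin 6 itself did not pass in any comparison. Il6 was at 45.533, 32.34 and 32.436 in KO mice on the Western diet and 29.817, 28.555 and 31.573 in WT mice on it. Under the control diet it was at 24.185, 37.025 and 37.538 in KO mice and 28.231, 32.46 and 28.641 in WT mice. The KO mice on the Western diet lay just above the WT mice on it, and no other pair of groups was apart. Il6 differed by 0.27 between KO and WT mice on the Western diet (adjusted p = 0.343 by limma) and by 0.16 between the diets in KO mice (adjusted p = 0.532). Ebi3, a subunit of interleukin 27 and interleukin 35, rose on the Western diet in KO mice by 0.74 (81.0 ± 5.60 against 48.7 ± 9.27, SD, n = 3 each, adjusted p = 0.0118). It did not pass under any of the 3 other scalings, at 0.01 on the sample median, 0.47 on the median ratio (adjusted p = 0.0566) and 0.07 after quantile normalization. The receptor gene Il27ra, whose product pairs with gp130 to bind interleukin 27, rose there by 0.77 (69.2 ± 8.66 against 40.1 ± 4.72, adjusted p = 0.00418). It also passed on the median ratio at 0.51, and not on the sample median (0.04) or after quantile normalization (0.17). In the other comparisons no ligand passed, and of the 4 receptor genes Il6st passed between the genotypes on the control diet. Il27, the partner of Ebi3, averaged 16.0 over the 12 libraries and fell under the filter.

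Of 9 tested Janus kinase and STAT genes, 5 rose in KO mice relative to WT mice on the Western diet under the authors' scaling, Stat3 not among them, and 0 rose under each of the 3 other scalings. Each of the 5 but Jak3 turned to a lower value with libraries recentred on the sample median, as did Jak2 and Stat6 after quantile normalization and Stat6 on the median ratio, which took the median of all genes from 0.26 to -0.30, -0.04 and 0.01. The risers were Stat5b, which carries growth hormone signals in the liver (0.33, adjusted p = 0.00606), and the interferon-signalling gene Stat2 (0.55, adjusted p = 0.0126). Jak3, a kinase of lymphoid cells, rose by 0.70, Jak2 by 0.26, and Stat6, which carries interleukin 4 signals, by 0.25. The median over the 9 was 0.26, beside 0.26 over all tested genes. On the Western diet in KO mice relative to the control diet, Jak2 rose under the authors' scaling (0.48, adjusted p = 0.000565; lower, at -0.25, on the sample median) and Stat3 fell. On the sample median 8 of the 9 fell there, after quantile normalization 6 and on the median ratio 2, and 0 rose under each. Between the genotypes on the control diet 1 of the 9 passed, Stat3, where 2.87% of all genes did. On the sample median 0 of the 9 passed, on the median ratio 2 and after quantile normalization 1. Of all 453 genes 12, 21 and 23 passed under these scalings in turn. In WT mice 0 of the 9 passed between the diets under the authors' scaling, where 8.61% of all genes did. On the sample median 4 of the 9 passed as lower, beside 60 of all 453 genes. On the median ratio and after quantile normalization 1 of the 9 passed as lower, beside 22 of all genes under each.

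The feedback inhibitors differed among themselves. Cish, a SOCS family gene induced through Stat5, was at 51.547, 121.04 and 78.001 in KO mice on the Western diet and 166.98, 140.74 and 158.95 in WT mice on it. Its control-diet levels were 28.391, 67.666 and 76.063 in KO mice and 36.992, 59.323 and 51.144 in WT mice. The 3 WT mice on the Western diet were the highest of all. Cish rose on the Western diet in WT mice by 1.66 (SE 0.37, adjusted p = 0.0243 by limma), and the difference was 0.57 in KO mice (adjusted p = 0.223). The interaction was -1.10 and did not pass (adjusted p = 0.171). Ptpn6 and Ptprc, phosphatase genes of blood cells, rose on the Western diet in KO mice by 0.42 and 1.19, and in KO relative to WT mice on that diet by 0.39 and 0.91 (Ptpn6 was lower in each on the sample median, at -0.31 and -0.18). Ptpn6 did not pass as higher under any of the 3 other scalings, and Ptprc did not pass between the genotypes on the sample median (0.35, adjusted p = 0.0553). Socs1 did not pass in any comparison.

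**Figure D4:**
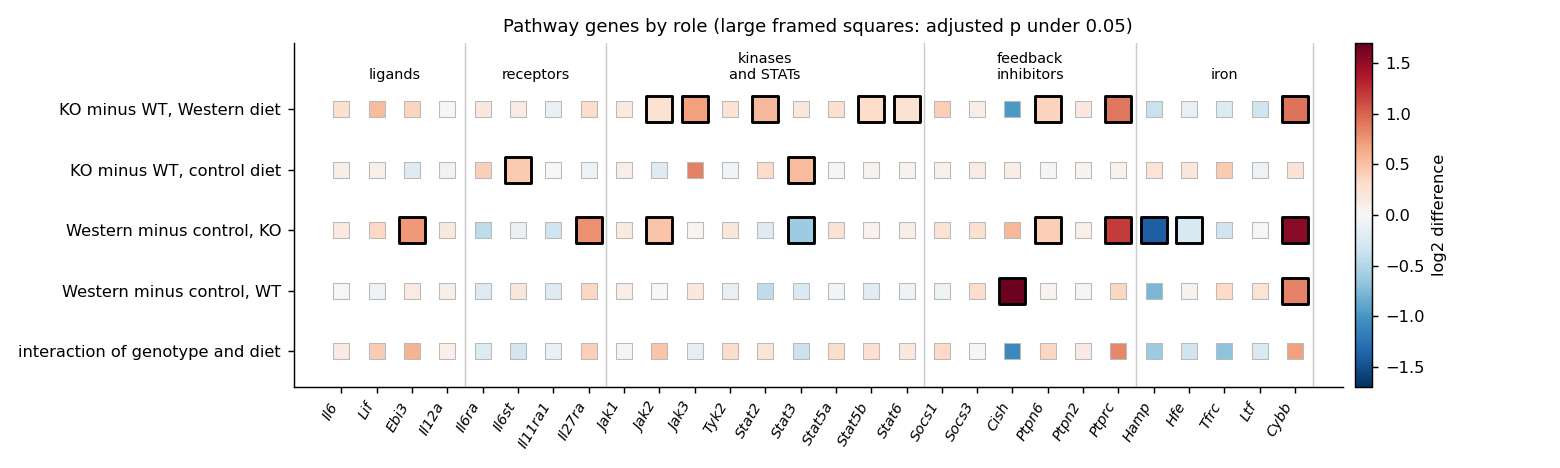
Log2 differences (colour, red higher and blue lower) of the measured and tested ligand, receptor, kinase and STAT, inhibitor and iron genes, in columns, for the 5 comparisons, in rows. Large framed squares have an adjusted p under 0.05. Stat3 is framed in the control-diet genotype row at 0.54 and in the KO diet row at -0.61, while 5 other kinase and STAT genes are framed in the Western-diet genotype row, 4 of which are lower with libraries recentred on the sample median.

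Other iron genes on the panel were few. Hfe, a membrane protein that acts upstream of hepcidin, was at 1060.1, 1216.9 and 1192.4 in KO mice on the Western diet, against 1392.2, 1461.9 and 1347.4 in KO mice on the control diet. It fell without overlap by 0.28 on the log2 scale (adjusted p = 0.013 by limma), and the difference was -1.01 on the sample median and -0.55 on the median ratio. Tfrc, the transferrin receptor gene, differed by -0.34 in KO mice (adjusted p = 0.185) and 0.34 in WT mice (adjusted p = 0.315), and the lactoferrin gene Ltf did not pass in any comparison. Cybb, a haem-binding oxidase subunit of phagocytes, rose on the Western diet by 1.54 in KO mice (adjusted p = 0.000329) and 0.84 in WT mice (adjusted p = 0.0384).

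Of 11 measured acute-phase and known Stat3 target genes, 2 rose and 2 fell on the Western diet in KO mice, where 45.3% of all genes passed. On the sample median 1 of the 11 rose and 6 fell. Hamp and Socs3 belong to this list, and Hamp and C3 are the ones that fell. Il1rn, the interleukin 1 receptor antagonist gene, rose by 2.08 (297 ± 26.6 against 69.9 ± 13.5, SD, n = 3 each), and the adhesion gene Icam1 by 0.89, which did not pass on the sample median (0.17) or after quantile normalization (0.16). In KO relative to WT mice on the Western diet 5 of the 11 rose, where 35.5% of all genes passed, among them the cell cycle inhibitor gene Cdkn1a (1.33), Icam1 (0.98), Bcl3 (0.52) and Il4ra (0.32). On the sample median 0 rose and 2 fell, on the median ratio 3 rose, and after quantile normalization 1 rose, with Bcl3 and Il4ra at lower values on the first and last of these. Cdkn1a alone passed on the control diet, at 2.56. The interleukin 10 receptor genes Il10ra and Il10rb, whose products also signal through Stat3, rose in KO mice on the Western diet by 1.13 and 0.91 relative to the control diet, and by 0.85 and 0.69 relative to WT mice. Both passed in each comparison on the median ratio, neither did on the sample median, and after quantile normalization Il10rb alone passed, between the diets (0.44, adjusted p = 0.0119). Of 7 genes of cytokines and receptors that induce interleukin 6, 4 rose in each of these comparisons, Il1a among them by 1.23 and 0.81, and on the sample median 2 rose and 2 fell between the diets in KO mice and 1 rose and 1 fell between the genotypes.

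Markers of other cells shifted between the same groups. The summed level of 17 macrophage and monocyte markers was 9674.5 to 11185 in KO mice on the Western diet and 3959.0 to 7636.2 in WT mice on it, and 4744.5 to 5556.3 and 4233.2 to 4564.7 in KO and WT mice on the control diet. In KO mice 15 of the 17 rose and 2 fell on the Western diet. With libraries recentred on the sample median 9 rose and 2 fell. Of all tested genes in that comparison 45.3% passed, 169 as higher and 36 as lower. On the sample median 55 of all genes passed as higher and 228 as lower. The counts of endothelial, T and NK cell and B cell markers below belong to the same comparison. The sum of 7 neutrophil markers was 335.44, 1007.3 and 655.92 in KO mice on the control diet, with replicate 2 again the highest, against 210.43 to 264.93 in WT mice on it. Of these 7, 5 were tested and 2 passed as higher in KO mice there, where 1.99% of all genes did. The genes S100a8 and S100a9 weigh most in the sum, with averages of 187 and 202 over the 12 libraries. The next highest, Csf3r, averaged 54.2. All 6 endothelial markers rose on the Western diet in KO mice, though on the sample median 1 rose and 1 fell, with sums of 1322.9 to 1441.4 on the Western diet and 846.48 to 891.03 on the control diet. Of 20 T and NK cell markers 16 were tested and 2 rose there, and of 9 B cell markers 7 were tested and 2 rose. On the sample median 0 of the T and NK cell markers rose and 8 fell, and 2 of the B cell markers rose and 1 fell. The part of these cells in the values of Hamp, Stat3, Il6st and Ptprc was not tested.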

How the data were processed

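Barcoded NanoString counts of 547 genes in 12 mice were used from the deposited workbook, whose log2 values are normalized counts, per the file headers. Returned to the linear scale, each library's values were whole multiples of 1 factor (100% of values, tolerance 0.001), so counts could be recovered. How the authors set the factors is not stated there. The series-wide value table holds the same values with its columns shifted by 1 animal, so the workbook's own header lines were followed. The test behind the authors' deposited p-values is not stated either.

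Groups came from the sample labels. A pseudocount of 1 was added to the linear values and log2 was taken again, which understates changes of low genes. A gene was tested if its mean over the libraries reached 20 normalized counts, as 453 of 547 did. One limma model (3.58.1, R 4.3.3) with group means took in every library, with moderated variances that follow a trend in level, and was tested on simulated data. Its two-sided p-values were Benjamini-Hochberg adjusted over the tested genes of a comparison (threshold 0.05). Groups of 3 are too small for an exact permutation test to pass that threshold, so none was used.

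The 5 genes, the gene lists and the comparisons were chosen with earlier results of these data known. In every comparison the 5 genes were named, with ligands, receptors, kinases and inhibitors on the panel, up to 4 genes of each other list with the smallest p-values among those that passed, and the 3 genes most like each of the 5. One listed gene is not reported here and is left out of its list's counts. Other scalings, filters, pseudocounts, variance models, covariates, tests, libraries and the value table were tried as alternatives. A block for the 2 runs of sample numbers in the workbook header was chosen after seeing the data. Promoter windows came from RefSeq tables of GRCm38.p6.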

Additional observations from a re-analysis of the deposited data

Results flagged for a closer look

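Il1a, which encodes an alarm cytokine that induces interleukin 6, had a diet difference that itself differed between the genotypes. Its level was 199 ± 5.74 in KO mice and 113 ± 5.67 in WT mice on the Western diet, and 84.5 ± 5.66 in KO mice and 83.8 ± 1.81 in WT mice on the control diet (normalized counts, SD, n = 3 each). The interaction was 0.81 on the log2 scale (SE 0.15, 95% interval 0.47 to 1.14, adjusted p = 0.0414 by limma). It did not pass under any of the 3 other scalings, at 0.35 on the sample median (adjusted p = 0.227), 0.61 on the median ratio (0.0527) and 0.51 after quantile normalization (0.103). All 3 KO mice on the Western diet lay above all other mice.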

How the results depend on the processing

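No paired analysis was possible because the replicate numbers only name the mice in deposited order. Over the 5 genes and 5 comparisons, the number that passed was 0, 2, 2, 0 and 0 (KO against WT on the Western and on the control diet, Western against control diet in KO and in WT mice, and the interaction). Recentred on the sample median these numbers were 3, 0, 4, 2 and 2, and on the median ratio 4 passed between the diets in KO mice and 2 in the interaction. For KO against WT on the control diet 0 passed with the variance of each gene by itself, with only the 6 libraries compared, and with age as a covariate. With the series-wide value table as labelled 0 passed on the control diet and 0 between the diets in KO mice. Without WT Western-diet replicate 2 and KO control-diet replicate 2 together 2 passed between the diets in WT mice. Leaving out 1 library gave 0 to 3 on the control diet, 2 to 3 between the diets in KO mice, 0 to 1 between the diets in WT mice and 0 to 2 in the interaction. The sample number block, added after seeing the data, changed none of these 5 numbers.

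The numbers of all genes that passed were 161, 13, 205, 39 and 6. For KO against WT on the Western diet they were 96 after quantile normalization, 94 without WT Western-diet replicate 2 and 84 without KO Western-diet replicate 2. For the control diet they ran from 5 with age as a covariate to 43 without KO control-diet replicate 1. Between the diets, age as a covariate gave 92 in KO mice, and in WT mice they ran from 3 without WT control-diet replicate 3 to 114 without both named libraries. In the interaction they ran from 1 to 100, with 100 reached without WT Western-diet replicate 1. With the value table as labelled 0 passed in each comparison. Higher against lower calls were 146 and 15 for KO against WT on the Western diet, 26 and 130 on the sample median, 69 and 43 on the median ratio and 42 and 54 after quantile normalization. Between the diets in KO mice they were 169 and 36, then 55 and 228, 108 and 93, and 82 and 111, and in WT mice 22 and 17, then 11 and 60, 17 and 22, and 20 and 22. For KO against WT on the control diet they were 9 and 4, then 5 and 7, 14 and 7, and 15 and 8, and in the interaction 5 and 1, then 7 and 59, 16 and 22, and 13 and 14.

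Values that turned sign follow, and the cause was not tested. On the sample median, for KO against WT on the Western diet, they were Il6st -0.43, Il6ra -0.38, Stat3 -0.39, Socs3 -0.45, Stat5b -0.23, Stat2 -0.0097, Jak2 -0.30, Stat6 -0.31, Ptpn6 -0.18, Il4ra -0.24 and Bcl3 -0.043. Between the diets on that scaling they were Socs3 -0.46, Jak2 -0.25 and Ptpn6 -0.31 in KO mice and Il6st -0.088 in WT mice. On the median ratio, for KO against WT on the Western diet, they were Il6st -0.12, Il6ra -0.070, Stat3 -0.080, Socs3 -0.14 and Stat6 -0.0027. After quantile normalization they were Il6ra -0.37, Socs3 -0.18, Jak2 -0.12, Stat6 -0.063, Il4ra -0.047 and Bcl3 -0.024 in that comparison, Hamp -0.071 on the control diet and Socs3 -0.17 between the diets in KO mice. With age as a covariate Socs3 was -0.20 between the diets in KO mice. With the value table as labelled, they were Hamp 0.54 and Jak2 -0.053 for KO against WT on the Western diet, and Il6st -0.054, Il6ra -0.21, Stat3 -0.062, Socs3 -0.13 and Cdkn1a -0.42 on the control diet. Between the diets that table gave Il6st 0.29, Il6ra 0.87, Stat3 0.46, Hamp 0.54, C3 0.74, C8b 0.95, Vtn 0.57 and Hc 0.70 in KO mice, and Il6st -0.14, Hamp 0.34, Cybb -0.73, Cdkn1a -1.45, Il1rn -0.98, C8b 0.33 and Il1a -0.66 in WT mice. Its interactions were Il6st 0.43, Il6ra 0.92, Stat3 0.59, Socs3 0.39 and Hamp 0.19. Without both named libraries Socs3 was -0.037 for KO against WT on the Western diet and -0.018 on the control diet, Hamp -0.037 on the control diet, and the Il6ra interaction 0.0056. With 1 library left out, Socs3 ran from -0.037 to 0.29 for KO against WT on the Western diet, from -0.057 to 0.49 on the control diet, from -0.085 to 0.47 between the diets in KO mice and from -0.38 to 0.17 in the interaction. Hamp ran from -0.037 to 0.53 on the control diet and the Il6ra interaction from -0.63 to 0.093. Counts of low genes such as Socs3 and Il6 limit their precision, and 3 mice per group limit that of every difference.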

Other observations

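Cebpb, a transcription factor gene of the acute-phase response, was at 1510.0, 4237.5 and 2655.3 normalized counts in KO mice on the control diet and 902.42, 1428.2 and 1167.1 in WT mice on it. The KO mouse with 4237.5 is the one that was highest for Hamp, Stat3, Il6st and Il6ra. This gene was chosen after its values were seen. Bcl6, a repressor gene known to be held down by Stat5 in the liver, was at 393.48, 60.06 and 222.42 in KO mice on the Western diet and 79.513, 40.793 and 67.5 in WT mice on it. It was also chosen after its values were seen, and the KO and WT ranges overlapped.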
